A study of Mus musculus with 14 samples.

Results

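Whole kidneys of 5 i-TERTci mice treated with GSK2830371, a compound that selectively blocks the phosphatase WIP1, were compared with whole kidneys of 4 control mice. These 9 libraries, out of 14 in the series, were chosen by their labels, and all 24164 genes of their table were considered. The treated mice carried both the actin-rtTA and the TetOp-TERTci transgene, each heterozygous, and the controls carried actin-rtTA only. Every mouse of both groups drank doxycycline, which acts through rtTA to switch on the TERTci transgene ubiquitously. Per the labels, i-TERTci mice passed 10 mg/mL of urinary protein at about 15 days on doxycycline, and daily intraperitoneal injections then ran to the end of the experiment. No injection is recorded for the controls. The controls were at 30 days on doxycycline, and the GSK2830371 mice at 31, 49, 49, 49 and 28 days for replicates 1 to 5. The age and the sex of the mice are not given in the labels. The 2 groups differ in transgene, in injection and in days at once, and also in sex by the sex-linked genes given below. Effects of the disease and of the inhibitor therefore cannot be told apart in this comparison. The library identifiers of the groups also form separate runs of numbers, whose meaning is not known here. Any difference in handling between the groups could not be told apart from the rest either.

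TERTci is a catalytically inactive telomerase reverse transcriptase, and mice that express it develop collapsing glomerulopathy, in which podocytes lose their specialised state, glomerular tufts collapse and the tubules are injured. WIP1, encoded by Ppm1d, is a p53-induced phosphatase that removes phosphate groups from p53, ATM and the histone H2AX and so dampens the response to DNA damage. The kidney is mostly tubule, above all proximal tubule, and podocytes are a small share of its cells. In whole-organ RNA, fewer cells of a type and less RNA per cell cannot be told apart.

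Values below are normalised read counts, that is reads divided by the size factor of the library, listed in the order of replicates 1 to 4 for the controls and 1 to 5 for GSK2830371. Changes are differences in mean log2(value + 1), tested with limma, and a gene was called changed at an adjusted p under 0.05. The libraries held 48469526 to 64582221 reads in the controls and 48435661 to 49423545 in the GSK2830371 group. Genes of the mitochondrial genome took 14.4% to 24.2% of reads in the controls and 5.07% to 8.35% with GSK2830371, and the 10 most abundant genes took 21.7% to 36.6% and 11.3% to 16.2%. Xist, the RNA of the inactive X chromosome, was 14144, 10697, 13649 and 15409 in the controls and 231, 29423, 25237, 20719 and 11.6 with GSK2830371. Ddx3y, a Y-linked gene, was 0 in all 4 controls and 4482, 11.7, 0, 3.43 and 2765 with GSK2830371. Replicates 1 and 5, at 31 and 28 days, were therefore Y-positive, and replicates 2, 3 and 4, all at 49 days, were Xist-positive like the controls. Sex and days coincide within the GSK2830371 group and cannot be told apart there. All 4 controls were Xist-positive, so the make-up by sex also differs between the groups. Fits with only the treated libraries at 28 and 31 days set Y-positive kidneys against Xist-positive controls. Defining genes of kidney tissue, among them Slc34a1 of proximal tubule, Umod of the loop of Henle and Nphs1 of podocytes, were detected in all 9 libraries at the levels given below. The first principal component held 66.3% of the variance and parted the groups, with the controls at -107 to -71.7 and GSK2830371 replicates 3 and 4 (54.0 and 36.0) nearer to them than replicates 1, 2 and 5 (100.3, 105.5 and 78.3).

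Of 18067 genes tested, 9094 were called changed, which is 50.3%. There were 4668 higher (25.8%) and 4426 lower (24.5%) in GSK2830371-treated kidneys. At least 2-fold change was reached by 2451 of the higher and 2612 of the lower genes, and at least 4-fold by 882 and 781. In 3770 genes (20.9%) every GSK2830371 library lay above every control, and in 3603 (19.9%) every one lay below. The median change over all genes tested was 0.0017 on the log2 scale, and the median SD of log2 values was 0.28 among controls and 0.36 among GSK2830371 libraries. With only the 3 libraries at 49 days 3619 genes were higher and 3521 lower, and with only the 2 at 28 and 31 days 3984 and 4096. Shares called in a gene group are read below against 25.8% and 24.5%. The gene lists hold 829 distinct genes found by symbol, of which 802 passed the filter on low values. Of these, 17 reached 10 normalised reads in no control and were tested only because the treated kidneys were high. They were 9 in the neutrophil list and 2 each in the macrophage and acute-phase lists. The extracellular matrix, chemokine, senescence and adrenal lists held 1 each.

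Tert (ENSMUSG00000021611, chromosome 13, 73626911 to 73649843, GRCm38), the gene of telomerase reverse transcriptase, checks the labels of the transgene. It was 114, 181, 145 and 137 in the controls and 360.0, 232, 903, 2522 and 1439.9 with GSK2830371. All 5 treated libraries lay above all 4 controls, with replicates 1 and 2 the lowest of them. Its mean rose from 145 ± 27.7 (SD, n = 4) to 1091 ± 932 (SD, n = 5) (log2 change 2.43, SE 0.63, adjusted p = 0.00998). Reads of the transgene and of the native gene cannot be told apart in gene totals. Ppm1d (ENSMUSG00000020525, chromosome 11, 85311244 to 85347066, GRCm38), the gene of the inhibitor's target, was 855, 875, 924 and 909 in the controls and 983, 780.2, 558, 601 and 617 with GSK2830371. The groups overlapped, with replicate 1 above every control and the other 4 below, and the difference did not pass (log2 change -0.36, SE 0.18, adjusted p = 0.103). Without replicate 1 it passed as a fall of 0.49 (adjusted p = 0.0191), and with only the libraries at 49 days as a fall of 0.48 (adjusted p = 0.0473).

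**Figure D1:**
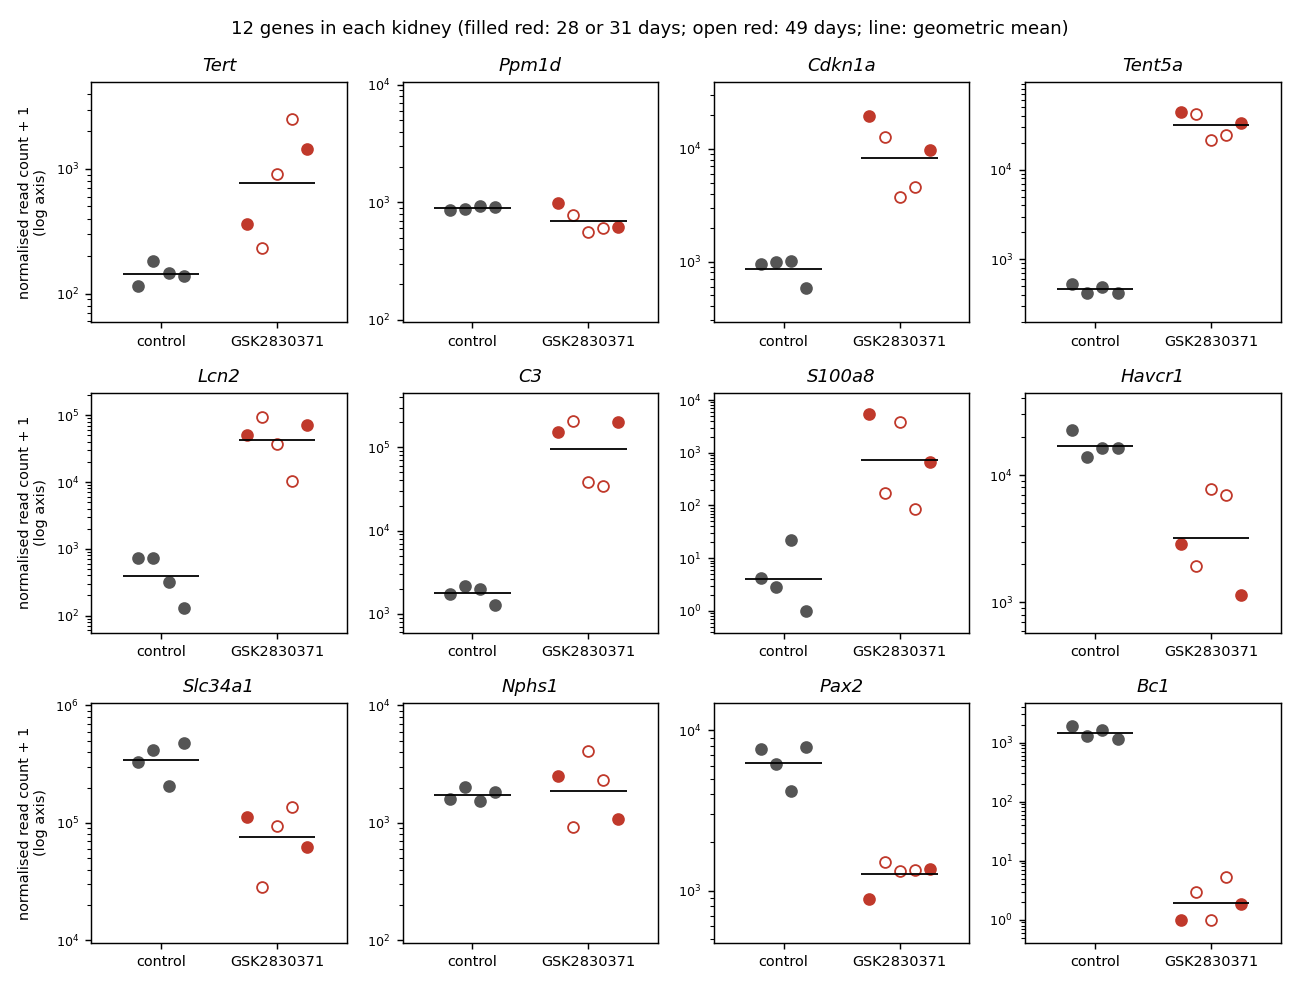
Normalised read count + 1 on a log axis for 12 genes in 4 control and 5 GSK2830371-treated kidneys, with a point for each library and a line at the geometric mean. Tent5a, C3 and Lcn2 lie far above the controls in all 5 treated kidneys, and Bc1 far below. Pax2 and Slc34a1 lie below without overlap, Slc34a1 by a narrow gap (highest treated 136455, lowest control 206325). Ppm1d and Nphs1 overlap.

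The 10 largest rises among genes with a group mean of at least 100 and no overlap of libraries included 4 neutrophil genes, the injury marker gene Lcn2 and the poly(A) polymerase gene Tent5a. Tent5a, whose polymerase is of the noncanonical type, had the smallest error among them. It was 525, 418, 483 and 418 in the controls and 44729, 42232, 21751, 24665 and 33266 with GSK2830371, a 69.6-fold rise with no overlap (log2 change 6.12, SE 0.22, adjusted p = 1.13e-08). Lcn2 encodes the injury marker NGAL, a protein that binds bacterial iron carriers. It was 720.4, 719.6, 322 and 129 in the controls and 51365, 93271, 37047, 10242 and 72584 with GSK2830371 (log2 change 6.77, SE 0.74, adjusted p = 0.000173). Mmp7 encodes matrilysin, a protease of injured tubules, and Vgf a secreted peptide precursor of nerve and endocrine cells. Mmp7 was 2.16, 4.60, 0.995 and 1.16 in the controls and 277, 237, 1625, 36.0 and 467 with GSK2830371 (log2 change 6.59, SE 0.88, adjusted p = 0.00023). The fitted changes of Vgf and Saa1, each with 2 control reads, depend on the pseudocount. Vgf was 0 in 3 controls and 1.84 in the fourth, and 67.4, 459, 58.9, 69.5 and 49.0 with GSK2830371 (log2 change 6.15, SE 0.63, adjusted p = 2.32e-05). From its 2 control reads the ratio of pooled normalised reads was 268, with an exact (Clopper-Pearson) 95% interval of 73.9 to 2220 for counting error only. The neutrophil genes Ngp (7.69), S100a8 (7.48), Cd177 (6.54) and S100a9 (6.04), the macrophage and neutrophil gene Chil3 (7.08) and the acute-phase gene Saa1 (6.24) complete the 10 and are described with their groups. Ngp, Cd177, Chil3, Mmp7, Saa1 and Vgf reached 10 normalised reads in no control and were tested only because the treated kidneys were high. Their rise was a condition of being tested, so their place among the 10 is a description.

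Among the largest falls, Bc1 led. It is a short noncoding RNA made by RNA polymerase III and best known in neurons. Bc1 (chromosome 7, 144914470 to 144914637, GRCm38) was 1914, 1311, 1626 and 1139.8 in the controls and 0, 1.94, 0, 4.29 and 0.83 with GSK2830371 (log2 change -9.55, SE 0.48, adjusted p = 2.16e-07). The treated kidneys held between 0 and 5 reads each. Serpina6, which encodes the carrier of corticosteroids in serum, was 12312, 20895, 17092 and 7122 in the controls and 53.7, 8.74, 693, 190.4 and 11.6 with GSK2830371 (log2 change -7.75, SE 1.29, adjusted p = 0.00182). Its treated values ranged widely, yet all lay below the controls. The potassium channel gene Kcng1 fell by 6.62 (adjusted p = 7.6e-05), from 286 to 740.1 to 0 to 14.9. Aplnr, the receptor of the peptide apelin on endothelium, was 689, 659, 523 and 662 in the controls and 2.29, 9.72, 5.89, 60.9 and 19.1 with GSK2830371 (log2 change -5.66, SE 0.68, adjusted p = 0.000106). The apolipoprotein L gene Apol10b (-6.30, adjusted p = 0.000796), the neuronal membrane protein gene Slitrk6 (-5.52, adjusted p = 0.000217), the organic anion transporter gene Slc22a26 (-5.49, adjusted p = 0.00433) and the linker histone gene H1f3 (-5.46, adjusted p = 9.71e-05) also fell. The last 2 of the 10 differed widely among treated mice. Trim12a was 678, 480.4, 508 and 213 in the controls and 179, 0, 198, 0 and 0 with GSK2830371 (log2 change -5.74, SE 1.98, adjusted p = 0.0411), and Ccdc170 was 585, 929, 1005 and 803 and 1.14, 1.94, 72.7, 525 and 4.98 (log2 change -5.57, SE 1.61, adjusted p = 0.0202). Trim12a has a close copy in the genome, so its reads are uncertain. It lost its call without any 1 control (adjusted p = 0.0588 to 0.0858) and without GSK2830371 replicate 2, 4 or 5 (adjusted p = 0.0971, 0.0921 and 0.0783), and Ccdc170 lost its call without replicate 2 (adjusted p = 0.0529) and with only the libraries at 49 days (adjusted p = 0.1). Tests on the recovered reads gave smaller changes that did not pass. For Trim12a they were -2.65 with DESeq2 and -2.66 with edgeR (adjusted p = 0.299 and 0.176), and for Ccdc170 -2.78 and -2.73 (adjusted p = 0.1 and 0.149). Trim12a also lost its call with no filter and with only the libraries at 28 and 31 days (adjusted p = 0.0561 and 0.152).

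**Figure D2:**
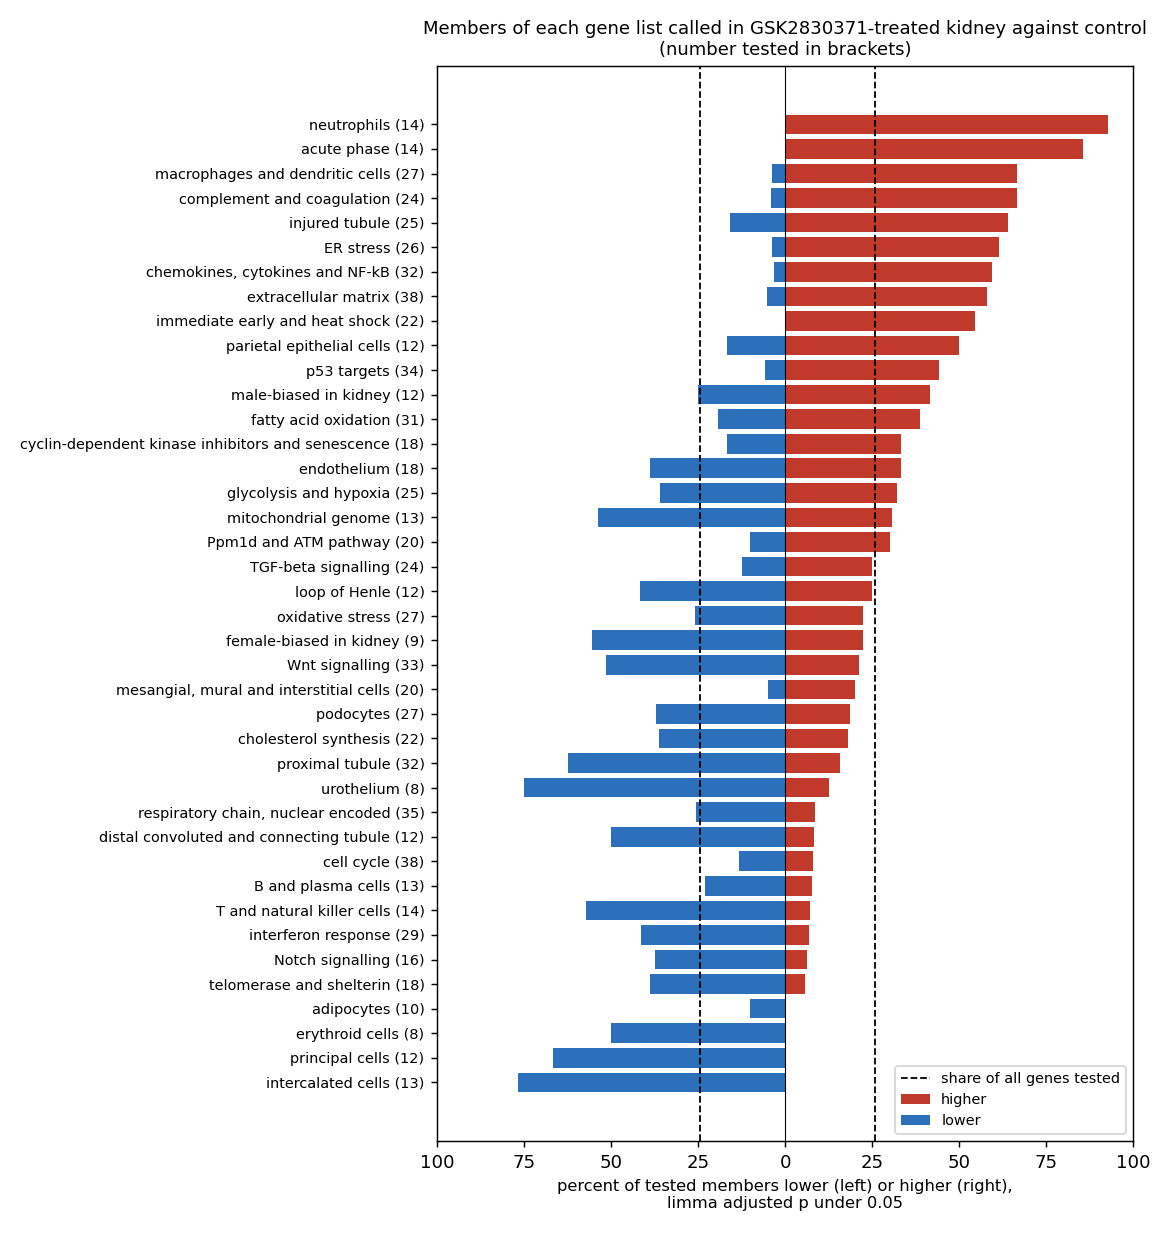
Share of tested members called higher (right, red) or lower (left, blue) in each gene list with at least 8 members tested, with dashed lines at the shares over all genes (25.8% and 24.5%). Neutrophil (13 of 14 higher), acute-phase (12 of 14 higher) and intercalated cell (10 of 13 lower) lists reach the highest shares. Of the genes tested, 9 neutrophil and 2 acute-phase genes reached 10 normalised reads in no control.

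Glomerular genes moved in both directions, as did all genes tested (25.8% higher and 24.5% lower). In the podocyte list 5 of 27 tested genes were higher and 10 lower, with a median of -0.04. Nphs1 encodes nephrin, the backbone of the slit diaphragm between podocyte foot processes. It was 1603, 2022, 1548 and 1839 in the controls and 2503, 927, 4068, 2333 and 1072 with GSK2830371 (log2 change 0.11, SE 0.39, adjusted p = 0.832), so that replicates 2 and 5 lay below every control and replicates 1, 3 and 4 above. Thsd7a, a podocyte membrane protein, was 567, 421, 429 and 579 in the controls and 1254, 1770.4, 1206, 961 and 1427 with GSK2830371 (log2 change 1.39, SE 0.19, adjusted p = 0.000122), with no overlap. The slit diaphragm adaptor gene Cd2ap rose by 0.76 (adjusted p = 0.00544), a call lost after GC correction (0.34, adjusted p = 0.135). Foxc2, a transcription factor of podocyte development, fell from 538 ± 93.8 (SD, n = 4) to 218 ± 24.7 (SD, n = 5) (log2 change -1.29, SE 0.19, adjusted p = 0.000172), and the slit diaphragm scaffold gene Magi2 fell by 1.05 (adjusted p = 0.00183). Chosen after their values were seen, Wt1 (-0.91, adjusted p = 0.00422), the master transcription factor of podocytes, and the actin regulator gene Synpo (-0.73, adjusted p = 0.00513) fell. Synpo did not pass after GC correction (adjusted p = 0.161). The number of lower podocyte genes was 6 without control replicate 1, 6 with only the libraries at 49 days and 6 after a correction for GC content.

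Parietal epithelial cells line Bowman's capsule and, once activated, express Cd44. Of 12 genes of their list 6 were higher and 2 lower, with a median of 0.59. Cd44 was 191, 162, 136 and 110.4 in the controls and 714, 676, 255, 639 and 945 with GSK2830371 (log2 change 2.01, SE 0.33, adjusted p = 0.000439), with no overlap. Wfdc2, a secreted protease inhibitor of epithelia, rose from 8088 ± 1686 (SD, n = 4) to 52860.2 ± 19599.7 (SD, n = 5) (log2 change 2.65, SE 0.28, adjusted p = 2.73e-05). Pax2, a transcription factor of nephron development kept in parietal cells and collecting duct, was 7628, 6186, 4163 and 7887 in the controls and 889, 1517, 1320.2, 1353 and 1370.2 with GSK2830371. All treated values lay below all controls (log2 change -2.30, SE 0.21, adjusted p = 1.27e-05). Krt7, a keratin of simple epithelia, fell by 0.52 (adjusted p = 0.0117).

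In the endothelial list 6 of 18 genes were higher and 7 lower (median -0.11), beside 25.8% and 24.5% of all genes. Pecam1, the adhesion molecule CD31, was 3667, 3980.0, 3343 and 3973 in the controls and 7594, 7035, 5368, 4888 and 5619 with GSK2830371 (log2 change 0.69, SE 0.16, adjusted p = 0.00384). Flt1, the VEGF receptor 1, rose from 3332 ± 459 (SD, n = 4) to 7801 ± 1453 (SD, n = 5) (log2 change 1.21, SE 0.17, adjusted p = 0.000166), and the endothelial guidance receptor gene Robo4 fell from 2354 ± 344 (SD, n = 4) to 1039 ± 212 (SD, n = 5) (log2 change -1.19, SE 0.17, adjusted p = 0.000178). Neither Flt1 nor Robo4 overlapped between the groups, but both were picked for the smallest p in their direction. In the list 6 genes lay higher and 6 lower without overlap of libraries, beside 20.9% and 19.9% of all genes. In the mesangial, mural and interstitial list 4 of 20 were higher and 1 lower (median 0.28), and the pericyte receptor gene Pdgfrb did not pass (-0.03, adjusted p = 0.917). Col1a2, a fibrillar collagen gene, rose from 5680.1 ± 1629 (SD, n = 4) to 31107 ± 12212 (SD, n = 5) (log2 change 2.41, SE 0.30, adjusted p = 7.28e-05).

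The proximal tubule reabsorbs phosphate, glucose, amino acids and filtered protein, and 20 of 32 genes of its list were lower and 5 higher (median -1.31). Slc34a1, the sodium-phosphate cotransporter, was 329821, 416258, 206325 and 475789 in the controls and 112934, 28669, 93669, 136455 and 62739 with GSK2830371 (log2 change -2.16, SE 0.42, adjusted p = 0.00145). Replicate 2 was the lowest, and replicates 1 and 4 were the highest of the treated. Miox, an inositol-degrading enzyme confined largely to this segment, was 170312, 144679, 93221 and 126812 and 11371, 5678, 15182, 30909 and 7877 (log2 change -3.46, SE 0.42, adjusted p = 9.18e-05). Slc22a8, a transporter of organic anions, fell by 3.05 (SE 0.36, adjusted p = 6.75e-05), and megalin (Lrp2) and the creatine synthesis gene Gatm, both chosen after their values were seen, fell (log2 changes -1.72 and -3.91, adjusted p = 0.0336 and 0.00328). Lrp2 lost its call without any 1 control or GSK2830371 replicate 1 or 5 (adjusted p = 0.0514 to 0.0838), with edgeR and with DESeq2 (adjusted p = 0.0966 and 0.0619). The direction was not uniform. Cyp4b1, a cytochrome P450, rose from 7310.0 ± 1948 (SD, n = 4) to 38831 ± 15349.9 (SD, n = 5) (log2 change 2.37, SE 0.28, adjusted p = 5.72e-05), and the glucose transporter gene Slc5a1 rose by 0.71 (adjusted p = 0.00958). The summed level of the list was 2691482 to 3669781 in the controls and 850792 to 2340675 with GSK2830371. The number of higher genes was 3 without control replicate 1.

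Further along, the loop of Henle list was mixed, with 3 of 12 higher and 5 lower (median -0.57), beside 25.8% and 24.5% of all genes. Umod, which encodes uromodulin, the most abundant protein of normal urine, was 112242, 172201, 216019 and 178873 in the controls and 365884, 151479.9, 255123, 248187 and 309772 with GSK2830371. Only replicate 2 lay inside the control range, and the difference did not pass (log2 change 0.63, SE 0.29, adjusted p = 0.0877), though it did without replicate 2 (0.82, adjusted p = 0.0254). Cldn16, a claudin of magnesium and calcium reabsorption, rose from 469 ± 45.7 (SD, n = 4) to 1632 ± 291 (SD, n = 5) (log2 change 1.78, SE 0.17, adjusted p = 1.39e-05), and the phosphatase inhibitor gene Ppp1r1a fell from 12917 ± 2627 (SD, n = 4) to 3773 ± 895 (SD, n = 5) (log2 change -1.79, SE 0.21, adjusted p = 4.37e-05). The number of lower genes was 3 without GSK2830371 replicate 2, without control replicate 2 and without control replicate 4.

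In the distal convoluted and connecting tubule 6 of 12 genes were lower and 1 higher (median -0.70). Slc12a3, the thiazide-sensitive sodium-chloride cotransporter, was 38753, 51463, 40775 and 54994 in the controls and 19449, 5650.2, 20656, 23967 and 13702 with GSK2830371 (log2 change -1.62, SE 0.36, adjusted p = 0.00333), and its regulator, the kinase gene Wnk4, fell from 14674 ± 2059 (SD, n = 4) to 6191 ± 1177 (SD, n = 5) (log2 change -1.26, SE 0.18, adjusted p = 0.000166). The higher gene was the cation channel gene Trpm7 (0.51, adjusted p = 0.0267). Its call was lost without GSK2830371 replicate 3 or 5 (adjusted p = 0.0566 and 0.0605), without control replicate 1 or 2 (adjusted p = 0.0829 and 0.0706), and after GC correction (0.09, adjusted p = 0.642). In the principal cells of the collecting duct, which take up water and sodium, 8 of 12 genes were lower and the other 4 did not pass (median -1.18). The water channel gene Aqp2 was not among them, at 21320.4, 18063, 23752 and 16744 in the controls and 20030.2, 31995, 17295, 24441 and 22051 with GSK2830371 (log2 change 0.20, SE 0.20, adjusted p = 0.441), though after GC correction it passed as a rise (0.70, adjusted p = 0.0205). Gata3, a transcription factor of the collecting duct, fell from 2575 ± 471 (SD, n = 4) to 655 ± 162 (SD, n = 5) (log2 change -1.99, SE 0.22, adjusted p = 2.96e-05). In the acid-secreting and base-secreting intercalated cells 10 of 13 were lower and the other 3 did not pass (median -1.36). Rhbg, an ammonia transporter, was 315, 225, 335 and 256 in the controls and 60.6, 29.1, 56.0, 43.7 and 54.8 with GSK2830371 (log2 change -2.53, SE 0.27, adjusted p = 2.96e-05), while the proton pump subunit gene Atp6v1g3 (-0.03, adjusted p = 0.89) and Kit (0.24, adjusted p = 0.35) did not pass.

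Genes of injured tubules rose, with 16 of 25 higher and 4 lower (median 0.99). Besides Lcn2, Dcdc2a, a doublecortin-domain gene of injured proximal tubule, rose from 311 ± 58.0 (SD, n = 4) to 1765 ± 558 (SD, n = 5) (log2 change 2.46, SE 0.24, adjusted p = 1.8e-05). Krt20, a keratin of urothelium that injured tubules also make, was 20.5, 28.5, 19.9 and 25.6 in the controls and 3217, 4268, 97.2, 1276 and 1981 with GSK2830371 (log2 change 5.71, SE 1.01, adjusted p = 0.00187), with replicate 3 far below the other treated kidneys. Spp1, osteopontin, was 41026, 55179, 40464 and 44254 and 457011, 1110687, 355605, 354662 and 497857 (log2 change 3.48, SE 0.32, adjusted p = 1.27e-05). Havcr1, which encodes the injury marker Kim-1, moved the other way. It was 22734, 13935, 16224 and 16413 in the controls and 2872, 1947, 7819.9, 7023 and 1132 with GSK2830371 (log2 change -2.40, SE 0.54, adjusted p = 0.00507). Every control lay above every treated kidney. The small heat shock protein gene Cryab also fell (-1.16, adjusted p = 0.00445).

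The extracellular matrix list had 22 of 38 higher and 2 lower (median 0.97). Col1a1, the partner chain of Col1a2, was 12598, 9611, 2273 and 7353 in the controls and 16693, 37472, 4735, 14133 and 28884 with GSK2830371 and did not pass (log2 change 1.30, SE 0.67, adjusted p = 0.137). Replicate 3 lay within the control range, and without it the rise was 1.75 (adjusted p = 0.0247). Tgfbi, a matrix protein induced by TGF-beta, was 623, 809.8, 583 and 692 and 4842, 3649, 2172, 2715 and 3322 (log2 change 2.26, SE 0.21, adjusted p = 1.39e-05). Timp1, an inhibitor of matrix proteases, and Lox, which crosslinks collagen, were chosen after their values were seen. They rose by 5.08 and 3.41 (adjusted p = 0.000429 and 0.00138). Timp3, another protease inhibitor, fell from 103504 ± 31540.0 (SD, n = 4) to 49568 ± 5449 (SD, n = 5) (log2 change -1.02, SE 0.22, adjusted p = 0.00247). Col4a3, a chain of the mature glomerular basement membrane, fell by 0.70 (adjusted p = 0.0211), a call lost without control replicate 4 (a fall of 0.60, adjusted p = 0.0682).

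Chemokines call leukocytes into tissue, and many are transcribed through NF-kB. In the chemokine, cytokine and NF-kB list 19 of 32 genes were higher and 1 lower (median 1.04). Cxcl1, which attracts neutrophils, was 40.0, 19.3, 32.8 and 8.13 in the controls and 4472, 2223, 761, 848 and 1082 with GSK2830371 (log2 change 6.03, SE 0.59, adjusted p = 4.08e-05). Every treated kidney lay far above every control, and replicate 1 was the highest. Tnfaip3 encodes A20, an NF-kB target that shuts the pathway down, and was 211, 285, 239 and 296 and 1643, 1339.9, 598, 804 and 1239.9 (log2 change 2.04, SE 0.27, adjusted p = 0.000102). Cxcl2, a second neutrophil chemokine chosen after its values were seen, was 11.9, 1.84, 0.995 and 8.13 and 250.3, 225, 13.8, 133 and 92.9 (log2 change 4.31, SE 0.85, adjusted p = 0.00186). Ccl2, which attracts monocytes, was 69.1, 42.3, 11.9 and 17.4 and 118, 41.8, 26.5, 183 and 105 and did not pass (log2 change 1.40, SE 0.63, adjusted p = 0.0806), but passed without GSK2830371 replicate 3 (1.77, adjusted p = 0.0228) and without control replicate 1 (1.82, adjusted p = 0.0399). Nos2, inducible nitric oxide synthase, fell from 98.7 ± 26.2 (SD, n = 4) to 24.4 ± 11.7 (SD, n = 5) (log2 change -2.06, SE 0.39, adjusted p = 0.000979). Ccl12 did not pass (-2.34, adjusted p = 0.0629) but did without GSK2830371 replicate 4 (adjusted p = 0.00541) or 5 (adjusted p = 0.0415). Ccl3, Ccl4, Cxcl5 and Il6 were too low to be tested.

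The promoters of Cxcl1, Cxcl2 and Tnfaip3 are shown because each holds a match to GGGNNNTTCC, a form of the kB motif that NF-kB dimers bind. Capitals mark every match on either strand, and matches that overlap form 1 run of capitals. The stretches end before the RefSeq transcription start (GRCm38.p6). They are Cxcl1 at chr5:90891129-90891228 on the plus strand, Cxcl2 at chr5:90903757-90903856 on the plus strand and Tnfaip3 at chr10:19015411-19015467 on the minus strand, each written 5′ to 3′ along the gene.
Cxcl1: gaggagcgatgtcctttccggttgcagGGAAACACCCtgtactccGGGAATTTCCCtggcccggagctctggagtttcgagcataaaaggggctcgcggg
Cxcl2: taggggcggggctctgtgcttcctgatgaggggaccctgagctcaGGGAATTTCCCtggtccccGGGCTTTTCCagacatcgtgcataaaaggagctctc
Tnfaip3: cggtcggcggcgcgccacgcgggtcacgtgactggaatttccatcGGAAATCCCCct
In Cxcl1 the 3 matches begin 89, 71 and 70 bases before the start, the second on the strand of the gene and the others on the opposite strand. In Cxcl2 the 3 matches begin 97, 96 and 78 bases before the start, the second on the opposite strand and the others on the strand of the gene. In Tnfaip3 the match shown begins 12 bases before the start on the opposite strand, and the window of another start of this gene, not printed, holds 1 more. Searched on both strands from 250 bases before to 50 bases after the start, the motif was present in 7 of the 13 higher genes of the list that have a window, and in 10 of the 22 tested genes with one. Over all genes with a window it was present in 1704 of 27025 (6.31%), and among the 10 largest rises in 0 of the 9 with a window. The list was drawn up to hold NF-kB genes and chemokines. A share above that of all genes comes with this choice and shows nothing about NF-kB in these kidneys. A match is a sequence and shows no binding.

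Complement and acute-phase genes, which the liver makes in bulk and injured epithelium can make locally, were higher in most cases. In the complement and coagulation list 16 of 24 were higher and 1 lower (median 1.43). C3, on which all complement pathways converge, was 1726, 2152, 2001 and 1294 in the controls and 151859, 209155, 38515, 34059.7 and 199061 with GSK2830371 (log2 change 5.77, SE 0.59, adjusted p = 7.03e-05). Replicates 3 and 4 lay well below the other 3 treated kidneys and still above every control. The fibrinogen chain gene Fgb was 230.1, 288, 242 and 257 and 12390.0, 9469, 6743, 5010.5 and 6042 (log2 change 4.89, SE 0.23, adjusted p = 1.66e-07), and Fgg and Fga, chosen after their values were seen, rose by 5.88 and 4.26 (adjusted p = 2.89e-05 and 9.68e-05). Plau, the plasminogen activator urokinase, fell from 34201 ± 6203 (SD, n = 4) to 17859 ± 3659 (SD, n = 5) (log2 change -0.94, SE 0.20, adjusted p = 0.00227). Of 14 acute-phase genes tested 12 were higher and the other 2 did not pass (median 3.31). Saa1 was 0 in 3 controls and 1.84 in the fourth, and 194, 283, 24.6, 48.0 and 131 with GSK2830371 (log2 change 6.24, SE 0.68, adjusted p = 3.47e-05). From its 2 control reads the pooled ratio was 256 (exact 95% interval 70.7 to 2120, counting error only). The heme carrier gene Hpx did not pass (-0.69, adjusted p = 0.429).

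Most macrophage and neutrophil genes tested rose, and most T and natural killer cell genes tested fell. Of 27 macrophage and dendritic cell genes tested 18 were higher and 1 lower (median 1.55). Mrc1, the mannose receptor of resident and repair macrophages, was 244, 230.1, 252 and 209 in the controls and 1517, 1908, 1274, 1023 and 2476 with GSK2830371 (log2 change 2.74, SE 0.23, adjusted p = 6.18e-06). Cd68 was 638, 630.4, 424 and 526 and 1238, 2983, 405, 1019.8 and 1363 and did not pass (log2 change 1.08, SE 0.46, adjusted p = 0.0727). GSK2830371 replicate 3 lay below every control, and without it the rise was 1.46 (adjusted p = 0.00192). Chil3 was 3.24, 2.76, 5.97 and 4.65 and 2936, 498, 1874, 100.3 and 505 (log2 change 7.08, SE 0.84, adjusted p = 0.00013). Csf1r, the receptor for the growth factor of macrophages, fell by 0.54 (adjusted p = 0.0254), and the call was lost without GSK2830371 replicate 1 or 3 or control replicate 2 (adjusted p = 0.056, 0.0583 and 0.0775). It was also lost after GC correction (-0.29, adjusted p = 0.194), with scaling to reads outside the mitochondrial genome (-0.45, adjusted p = 0.116) and with only the libraries at 28 and 31 days (adjusted p = 0.0738). Cx3cr1, the fractalkine receptor of resident macrophages, was 463, 339, 423 and 383 in the controls and 16.0, 95.2, 56.0, 462 and 190.0 with GSK2830371. Replicate 4 was level with the highest control, and the change did not pass (log2 change -2.06, SE 0.80, adjusted p = 0.056). Without replicate 4 the gene fell by 2.62 (adjusted p = 0.00645), and without replicate 5 by 2.30 (adjusted p = 0.049).

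Neutrophil genes were near 0 in the controls and spread widely with GSK2830371. Of 16 members 14 were tested, and 9 of them reached 10 normalised reads in no control, so that their rise was a condition of being tested and the count is a description. There were 13 higher, all 13 without overlap, and the other, Csf3r, did not pass. The median was 5.57, and it was the same with Mpo set to the bound given below. S100a8, a calcium-binding protein abundant in neutrophil cytoplasm, was 3.24, 1.84, 20.9 and 0 in the controls and 5348, 168, 3762, 83.2 and 663 with GSK2830371 (log2 change 7.48, SE 1.43, adjusted p = 0.0029). S100a9, its partner, was 4.32, 1.84, 35.8 and 15.1 and 3969, 145, 3001, 118 and 524 (log2 change 6.04, SE 1.27, adjusted p = 0.00457), and the granule gene Ngp was 1.08, 0.92, 7.96 and 0 and 5271, 126, 3716, 19.7 and 633 (log2 change 7.69, SE 1.65, adjusted p = 0.0051). Replicates 1 and 3 were the highest and 2 and 4 the lowest in each of the 3, a range that is not ordered by days, since replicate 3 was at 49 days. Cd177, a surface protein of neutrophils, was 4.32, 2.76, 0 and 0 and 1433, 45.7, 1071, 12.9 and 297 (log2 change 6.54, SE 1.39, adjusted p = 0.00407). Retnlg, a resistin-like gene, was 2.16, 0, 6.96 and 1.16 and 259, 103, 287, 39.5 and 199 (log2 change 5.73, SE 0.67, adjusted p = 6.2e-05), and the chemokine receptor gene Cxcr2 was 3.24, 0.92, 6.96 and 3.49 and 111, 19.4, 151, 36.9 and 73.0 (log2 change 3.93, SE 0.60, adjusted p = 0.000258). Mpo, myeloperoxidase of primary granules, was 0 in every control and 1605, 16.5, 722, 5.15 and 43.2 with GSK2830371, at least 153-fold higher on average against a floor of 3 reads in each control. Camp, a granule antimicrobial peptide, was 0, 0, 0.995 and 0 in the controls and 805, 21.4, 512, 1.72 and 69.7 with GSK2830371. From its 1 control read the pooled ratio was 977 (exact 95% interval 175 to 38600, counting error only). Ly6g and Elane, defining neutrophil genes that were too low to be tested, were at 0, 0, 0 and 0 and 1.08, 0, 0 and 0 in the controls and at 22.9, 4.86, 15.7, 0 and 4.15 and 226, 1.94, 169.9, 2.57 and 3.32 with GSK2830371. Ly6g was at least 3.05-fold higher against the same floor, and the pooled ratio of Elane, from 1 control read, was 278 (exact 95% interval 49.7 to 11000, counting error only). With weighted log counts (limma-voom) 6 of the 14 were called. Those not called included Ngp (adjusted p = 0.149), S100a8 (adjusted p = 0.0932), Cd177 (adjusted p = 0.0712), S100a9 (adjusted p = 0.0717), Camp (adjusted p = 0.0721) and Mpo (adjusted p = 0.0593), which edgeR did not call either (adjusted p = 0.0604).

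**Figure D3:**
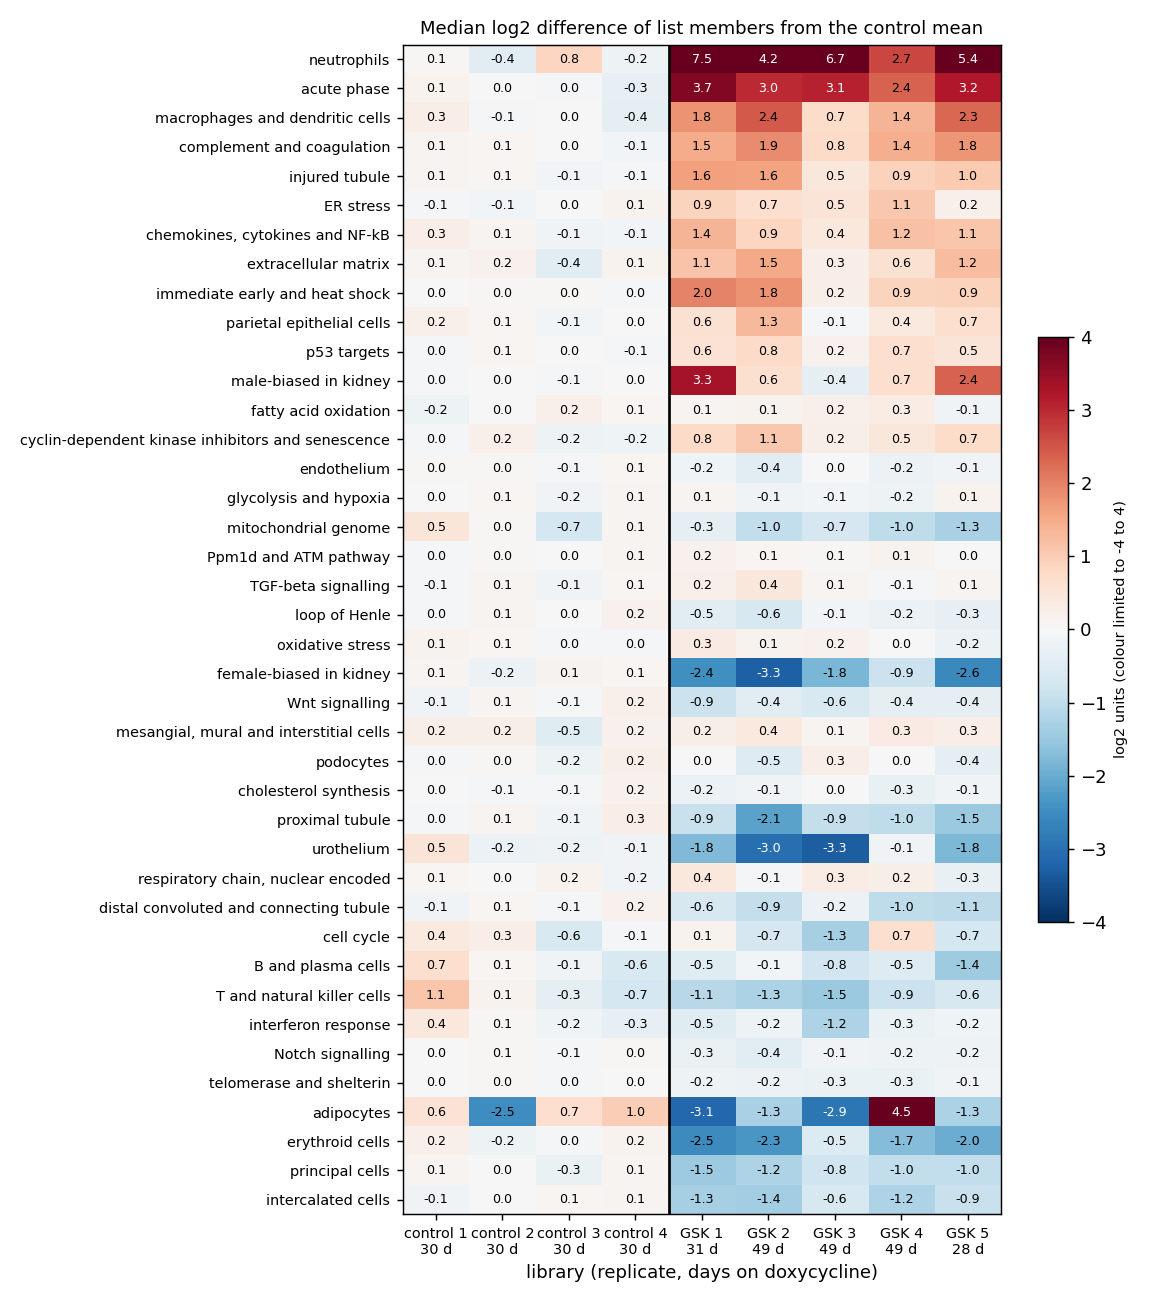
Median log2 difference of the members of each list from the mean of the 4 controls, for each of the 9 libraries, with the days on doxycycline under each library. Neutrophil genes range from 2.7 to 7.5 in the treated kidneys and are highest in GSK 1 and GSK 3, whereas the complement, injured tubule and extracellular matrix lists are lowest in GSK 3.

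In the T and natural killer cell list 8 of 14 genes were lower and 1 higher (median -1.34). Trac, the constant region of the T cell receptor alpha chain, was 319.7, 190.5, 104 and 132 in the controls and 32.0, 32.1, 15.7, 32.6 and 35.7 with GSK2830371 (log2 change -2.54, SE 0.37, adjusted p = 0.000179). Cd3e, a chain of the same receptor complex, was 75.6, 27.6, 25.9 and 18.6 and 6.86, 19.4, 4.91, 15.4 and 14.9 (log2 change -1.45, SE 0.50, adjusted p = 0.028). Control replicate 1 was the highest for both, and without it 5 members were lower and Cd3e no longer passed (-1.04, adjusted p = 0.102). Cd3e was also lost without control replicate 2 (adjusted p = 0.0509) or GSK2830371 replicate 1 or 3 (adjusted p = 0.058 and 0.0562). Il7r, the receptor of the lymphocyte growth factor IL-7, rose by 1.14 (adjusted p = 0.0214), a call lost without GSK2830371 replicate 5 (adjusted p = 0.0545) or control replicate 1 or 4 (adjusted p = 0.0541 and 0.0624), after GC correction (0.73, adjusted p = 0.123) and with only the libraries at 28 and 31 days (adjusted p = 0.117). In the B and plasma cell list 1 of 13 was higher and 3 lower (median -0.69), beside 25.8% and 24.5% of all genes. The higher gene was Sdc1, syndecan-1, which epithelium also makes, at 592 ± 81.4 (SD, n = 4) in the controls and 2669.5 ± 1430.0 (SD, n = 5) with GSK2830371 (log2 change 2.02, SE 0.34, adjusted p = 0.000662). Iglc2, an immunoglobulin light chain constant gene, was 146, 29.4, 43.8 and 13.9 and 9.14, 5.83, 12.8, 13.7 and 2.49 (log2 change -2.26, SE 0.63, adjusted p = 0.0102), and Cd79a did not pass (-0.72, adjusted p = 0.172). Of 8 erythroid genes 4 were lower and the other 4 did not pass (median -1.90). Hba-a1, an alpha globin gene with a near-identical copy, was 41776, 48591, 28191 and 42790.5 in the controls and 1266, 1388, 6092, 3294 and 3794 with GSK2830371 (log2 change -3.89, SE 0.44, adjusted p = 8.65e-05), and the beta globin gene Hbb-bt did not pass (0.79, adjusted p = 0.171).

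Targets of p53 that halt the cycle or sense damage rose in part. In the p53 target list 15 of 34 genes were higher and 2 lower (median 0.45). Cdkn1a (chromosome 17, 29090976 to 29100727, GRCm38) encodes p21, the inhibitor of cyclin-dependent kinases that p53 induces. It was 947, 993, 1002 and 579 in the controls and 19406, 12628, 3703, 4591 and 9673 with GSK2830371 (log2 change 3.28, SE 0.46, adjusted p = 0.000356), with replicates 3 and 4 the lowest of the treated. Aen, a p53-induced nuclease, was 904, 949.7, 940.1 and 940.0 and 1961, 1766, 1793, 1828 and 1396 (log2 change 0.90, SE 0.14, adjusted p = 0.000243). Eda2r, a death-domain receptor that p53 induces, and Trp53inp1, a p53-induced stress protein, were chosen after their values were seen and rose by 3.74 and 2.94 (adjusted p = 0.000687 and 0.00189). Mdm2, the ubiquitin ligase that degrades p53, did not pass (0.22, adjusted p = 0.246). Pidd1, a death-domain adaptor, fell from 305 ± 24.7 (SD, n = 4) to 144 ± 19.2 (SD, n = 5) (log2 change -1.09, SE 0.19, adjusted p = 0.000685) and Bax, which permeabilises mitochondria in apoptosis, fell by 0.80 (adjusted p = 0.00279), a call lost after GC correction (a fall of 0.30, adjusted p = 0.168).

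In the list of Ppm1d and the ATM pathway 6 of 20 were higher and 2 lower (median 0.14), beside 25.8% and 24.5% of all genes. The number higher was 2 without control replicate 4 and 2 after GC correction. Atm, the kinase that senses double-strand breaks, was 203, 427, 510.3 and 455 in the controls and 602, 736, 729.8, 804 and 842 with GSK2830371 (log2 change 0.97, SE 0.25, adjusted p = 0.00601). H2ax, the histone that ATM phosphorylates and WIP1 dephosphorylates, was 1730.3, 1521, 868 and 1445 and 329, 360.5, 476, 506 and 301 (log2 change -1.80, SE 0.23, adjusted p = 7.45e-05). Trp53 itself, chosen after its values were seen, fell by 1.23 (adjusted p = 0.000852). These are transcript levels, and phosphorylation was not measured. Among telomerase and shelterin genes 1 of 18 was higher, which was Tert, and 7 were lower (median -0.28), or 4 with scaling to reads outside the mitochondrial genome. Acd encodes TPP1, the shelterin protein that recruits telomerase, and was 3178, 2429, 1802 and 2555 in the controls and 909, 801, 942, 678 and 703 with GSK2830371 (log2 change -1.61, SE 0.18, adjusted p = 3.46e-05).

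Of 18 genes of cyclin-dependent kinase inhibitors and the senescent secretome 6 were higher and 3 lower (median 0.79). After GC correction 10 were higher and 1 lower. Besides Cdkn1a and Timp1, Areg, an EGF receptor ligand chosen after its values were seen, was higher (adjusted p = 0.00271). From its 3 control reads the pooled ratio was 108 (exact 95% interval 36.9 to 528, counting error only). Igfbp5, which binds insulin-like growth factors, fell from 53757 ± 16378 (SD, n = 4) to 12445 ± 6004 (SD, n = 5) (log2 change -2.17, SE 0.30, adjusted p = 0.000143). Cdkn2a, which encodes p16, was too low to be tested, at 3.24, 2.76, 0 and 0 in the controls and 0, 5.83, 0.982, 8.58 and 15.8 with GSK2830371. In the cell cycle list 3 of 38 genes were higher and 5 lower (median -0.35), beside 25.8% and 24.5% of all genes. Mki67, the proliferation marker Ki-67, was 579, 596, 184 and 549.6 in the controls and 399, 165, 87.4, 863 and 216 with GSK2830371 and did not pass (log2 change -0.76, SE 0.63, adjusted p = 0.341). Replicate 4 was above every control, and without it 8 members were lower. Pcna, the DNA polymerase clamp that p53 also induces, was 684, 940.5, 891 and 738 and 2280.1, 1740.2, 1563, 2150.2 and 1723 (log2 change 1.21, SE 0.16, adjusted p = 0.000105), and the cytokinesis motor gene Kif23 rose by 1.86 (adjusted p = 0.00138). The G1 cyclin gene Ccnd3 fell from 8407 ± 2141 (SD, n = 4) to 2977 ± 592 (SD, n = 5) (log2 change -1.48, SE 0.21, adjusted p = 0.000173), and the thymidine kinase gene Tk1 fell by 1.40 (adjusted p = 0.00264).

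Wnt ligands act through Frizzled receptors to stabilise beta-catenin, and in the Wnt list 17 of 33 genes were lower and 7 higher (median -0.59). Wnt9b, a ligand of the collecting duct lineage, was 719, 571, 699 and 661 in the controls and 66.3, 156, 183, 142 and 143 with GSK2830371 (log2 change -2.33, SE 0.27, adjusted p = 4.45e-05). Wnt4 was 582, 407, 357 and 336 and 223, 307, 268, 554 and 261 and did not pass (log2 change -0.43, SE 0.27, adjusted p = 0.202), but passed without GSK2830371 replicate 4 (a fall of 0.64, adjusted p = 0.0261). The Wnt target genes Lef1 and Axin2, chosen after their values were seen, fell (log2 changes -2.34 and -0.92, adjusted p = 0.000118 and 0.009), Axin2 with no call after GC correction (adjusted p = 0.0544). Dkk3, a secreted protein of stressed tubules, rose from 1085 ± 156 (SD, n = 4) to 2864 ± 1057 (SD, n = 5) (log2 change 1.32, SE 0.26, adjusted p = 0.00145). The number of higher genes was 4 without control replicate 1. In the TGF-beta list 6 of 24 were higher and 3 lower (median 0.20), beside 25.8% and 24.5% of all genes. The receptor gene Tgfbr1 was 2053, 1523, 2239 and 2029.8 in the controls and 5102, 6665, 3817, 3751 and 5699 with GSK2830371 (log2 change 1.33, SE 0.20, adjusted p = 0.000198), and the ligand gene Bmp4 was 5400.3, 4762, 4261 and 4048 and 1857, 1888, 1879, 1762 and 1676 (log2 change -1.34, SE 0.13, adjusted p = 1.84e-05). Tgfb1 fell by 0.62 (adjusted p = 0.0316), a call lost without GSK2830371 replicate 1, 3 or 4 or control replicate 1, 2 or 4 (adjusted p = 0.0547 to 0.0956). In the Notch list 1 of 16 was higher and 6 lower (median -0.24). Hes1, a classical Notch target, was 1613, 1501, 1739 and 1336 and 680.0, 561, 713, 839.7 and 677 (log2 change -1.16, SE 0.15, adjusted p = 9.36e-05), Rbpj, the DNA-binding partner of Notch, rose by 0.76 (adjusted p = 0.00217), and Notch1 did not pass (-0.05, adjusted p = 0.776).

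Interferon-induced genes, which restrain viruses and present antigen, were lower in 12 of 29 cases and higher in 2 (median -0.44). Ifi44 was 1128, 761, 764 and 945 in the controls and 143, 184, 269, 362 and 249 with GSK2830371 (log2 change -1.95, SE 0.26, adjusted p = 9.73e-05). Cxcl9, a chemokine induced by interferon gamma, and Zbp1, a nucleic acid sensor, were chosen after their values were seen and fell (log2 changes -3.27 and -2.86, adjusted p = 0.00436 and 0.000593). Irf1 did not pass (0.45, adjusted p = 0.079), but did without GSK2830371 replicate 3 (0.59, adjusted p = 0.0174). Ifit2 rose by 0.72 (adjusted p = 0.00955), a call lost after GC correction (adjusted p = 0.121).

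Metabolic lists showed changes in both directions, as did all genes tested (25.8% higher and 24.5% lower). Fatty acids are the main fuel of the proximal tubule, and in the fatty acid oxidation list 12 of 31 genes were higher and 6 lower (median 0.17). Ppara, the nuclear receptor that drives the pathway, was 532, 1783, 1458 and 1691 in the controls and 2845, 4411, 2148, 3044 and 3208 with GSK2830371 (log2 change 1.30, SE 0.34, adjusted p = 0.00838). Pdk4, a PPAR target that turns cells from glucose to fat, rose from 955 ± 301 (SD, n = 4) to 5084 ± 2311 (SD, n = 5) (log2 change 2.33, SE 0.36, adjusted p = 0.000456), and the enzyme gene Eci1 rose by 0.94 (adjusted p = 0.00159). Etfb, a subunit of the electron transfer flavoprotein, was 1869, 1212, 1391 and 1007 and 118, 85.5, 169.9, 172 and 111 (log2 change -3.39, SE 0.25, adjusted p = 2.89e-06), and the fatty acid carrier gene Fabp3 fell by 0.90 (adjusted p = 0.000551). Of 35 nuclear genes of the respiratory chain 3 were higher and 9 lower (median 0.17). The complex I gene Ndufa1 rose from 2471 ± 619 (SD, n = 4) to 6598 ± 1065 (SD, n = 5) (log2 change 1.44, SE 0.19, adjusted p = 0.000106) and the ATP synthase gene Atp5o fell by 1.15 (adjusted p = 0.000156).

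The 13 protein genes of the mitochondrial genome did not move together, with 4 higher and 7 lower (median -0.86). The complex I genes mt-Nd1 and mt-Nd4 fell (log2 changes -2.46 and -3.04, adjusted p = 0.000113 and 3.28e-05). For mt-Nd1 the values were 2526097, 1774332, 1011661 and 1955192 in the controls and 509434, 261081, 359620.0, 283217 and 223056 with GSK2830371. The complex I gene mt-Nd6, the only protein gene on the light strand, was 215, 325, 653 and 171 and 18165, 6853, 11148, 6122 and 6675 (log2 change 4.90, SE 0.43, adjusted p = 2.62e-05). Since the strand setting of the counting is not given, its reads and those of the opposite strand cannot be told apart. Mitochondrial genes are cut from shared transcripts, and these opposite changes stood beside the drop in mitochondrial reads given above. The part of library composition in them was not tested.

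Cholesterol synthesis genes were lower in 8 of 22 cases and higher in 4 (median -0.19). The mevalonate kinase gene Mvk fell by 1.02 (adjusted p = 0.00053), and the isomerase gene Idi1 rose from 157 ± 72.6 (SD, n = 4) to 442 ± 60.9 (SD, n = 5) (log2 change 1.59, SE 0.28, adjusted p = 0.000591). In the glycolysis and hypoxia list 8 of 25 were higher and 9 lower (median -0.15), and the 2 hexokinases had opposite signs. Hk2, the inducible form, was 54.0, 42.3, 36.8 and 39.5 and 273, 199, 107, 229.9 and 644 (log2 change 2.49, SE 0.41, adjusted p = 0.000433), while Hk1 fell by 0.68 (adjusted p = 0.00482) and the enolase gene Eno1 fell by 1.15 (adjusted p = 0.000517). The call of Hk1 was lost after GC correction (-0.33, adjusted p = 0.0929) and with only the libraries at 28 and 31 days (adjusted p = 0.0704). Without control replicate 1 the number higher was 5, and without GSK2830371 replicate 2 or control replicate 2 or 4 the number lower was 5.

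The ER stress list holds chaperones and other genes of protein folding in the endoplasmic reticulum, and 16 of its 26 genes were higher and 1 lower (median 0.62). Hspa5, the chaperone BiP, was 12692, 13155, 17769.5 and 17626 in the controls and 38936, 32543, 35916, 66527 and 26224 with GSK2830371 (log2 change 1.33, SE 0.25, adjusted p = 0.00101). Pdia6, a disulfide isomerase, was 5083, 5105, 5604 and 5985 and 25750.4, 27013, 19108, 24745 and 15551 (log2 change 2.02, SE 0.19, adjusted p = 1.38e-05). Syvn1, the ubiquitin ligase that clears misfolded proteins, fell by 0.74 (adjusted p = 0.00343), which did not pass after GC correction (adjusted p = 0.066). Immediate early and heat shock genes were higher in 12 of 22 cases, and the other 10 did not pass (median 1.20). Fos, a subunit of the AP-1 factor, was 57.2, 54.3, 81.6 and 25.6 and 491, 473, 328, 254 and 346 (log2 change 2.84, SE 0.33, adjusted p = 4.31e-05). The heat shock gene Hsph1 did not pass (-0.82, adjusted p = 0.233). Replicate 4, at 9436, lay above every control, and without it the gene fell by 1.31 (adjusted p = 0.000667). In the oxidative stress list 6 of 27 genes were higher and 7 lower (median 0.05), shares near those over all genes (25.8% and 24.5%). Nfe2l2, the gene of the master regulator NRF2, did not pass (0.39, adjusted p = 0.0785), but did without GSK2830371 replicate 3 (0.46, adjusted p = 0.0498). Its target gene Srxn1 rose from 2461 ± 194 (SD, n = 4) to 4862 ± 1063 (SD, n = 5) (log2 change 0.96, SE 0.17, adjusted p = 0.000612), and catalase (Cat) fell from 60226 ± 12111 (SD, n = 4) to 26299.7 ± 6336 (SD, n = 5) (log2 change -1.21, SE 0.22, adjusted p = 0.000837). The number of lower genes was 4 without control replicate 1, and with scaling to reads outside the mitochondrial genome 11 were higher.

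Genes of other tissues and of sex moved as well. Of 8 urothelial genes 6 were lower and 1, Krt20, was higher (median -2.10). Upk2, a uroplakin that coats the urothelium, was 513, 246, 228 and 290.5 in the controls and 22.9, 18.5, 19.6, 127 and 30.7 with GSK2830371 (log2 change -3.20, SE 0.51, adjusted p = 0.000421). Adipocyte genes separated single libraries. Adipoq, adiponectin, was 64.8, 0, 57.7 and 52.3 in the controls and 0, 15.5, 1.96, 1300.2 and 28.2 with GSK2830371 (log2 change -0.25, SE 2.21, adjusted p = 0.934), so that replicate 4 stood far above all others. Of 10 adipocyte genes 1 passed, as a fall, the lipase gene Lpl (-1.99, adjusted p = 0.0429). Its call was lost without GSK2830371 replicate 1, 2, 4 or 5 or control replicate 1, 3 or 4 (adjusted p = 0.0618 to 0.0972). In control replicate 2 Lpl was 44065 while Adipoq was 0, so the fall of Lpl need not be one of adipocytes. Of 4 adrenal genes tested, Mc2r, the receptor of corticotropin, and Hsd3b1 were higher and Akr1b7 lower, and Star did not pass (0.11, adjusted p = 0.761). Cyp11a1 and Cyp21a1 were too low to be tested, and Cyp11b1 and Cyp11b2 were not among the genes considered. The summed level of the list overlapped, at 187 to 267 in the controls and 160 to 315 with GSK2830371. Mc2r reached 10 normalised reads in no control and was tested only because the treated kidneys were high. Mc2r was 2.16, 3.68, 1.99 and 1.16 and 21.7, 10.7, 17.7, 15.4 and 7.47 (log2 change 2.23, SE 0.44, adjusted p = 0.00133), and Akr1b7 fell by 0.95 (adjusted p = 0.0179), which did not pass without control replicate 1 (adjusted p = 0.0551). Hsd3b1 rose by 1.39 (adjusted p = 0.0297), a call lost without GSK2830371 replicate 2, 3 or 5 or control replicate 3 or 4 (adjusted p = 0.0529 to 0.102).

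Because 2 of the treated kidneys were Y-positive, genes known to differ between male and female kidney were counted. Of 12 male-biased genes 5 were higher and 3 lower (median 1.97), and of 9 female-biased genes 2 were higher and 5 lower (median -2.48). Cyp4a12a, an androgen-dependent cytochrome P450, was 103, 82.8, 83.6 and 59.3 in the controls and 3314, 914, 1094, 1045 and 556 with GSK2830371 (log2 change 3.81, SE 0.41, adjusted p = 5.03e-05). Replicate 1, Y-positive, was the highest, and replicate 5, also Y-positive, the lowest of the treated. Kap, an androgen-regulated proximal tubule gene, was 1435171, 978077, 841014 and 776724 and 463401, 22005, 23267, 48586 and 144351 (log2 change -3.81, SE 0.84, adjusted p = 0.00478), with replicates 1 and 5 the highest of the treated. The female-biased amino acid transporter gene Slc7a12 was 18323, 14241, 18672 and 16764 and 578, 251, 4784, 7894 and 353 (log2 change -3.89, SE 1.10, adjusted p = 0.0196), lowest in replicates 1, 2 and 5. Prlr, the prolactin receptor, fell from 21247 ± 3595 (SD, n = 4) to 3997 ± 2134 (SD, n = 5) (log2 change -2.53, SE 0.30, adjusted p = 6.42e-05). With only the Xist-positive libraries at 49 days, Kap, Prlr and Cyp4a12a still passed in the same direction (-5.07, -2.43 and 3.64, adjusted p = 3.3e-05, 0.00142 and 3.08e-05), and Slc7a12 did not (-3.00, adjusted p = 0.0885).

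Changed genes with the widest spread among treated kidneys were Ngp, Mpo, Camp, Ccdc170, Ldc1 and Slc22a7. Ldc1, leucine decarboxylase 1, was 6706, 4605, 4544 and 3752 in the controls and 133, 2.91, 1289, 1212 and 26.6 with GSK2830371 (log2 change -5.35, SE 1.77, adjusted p = 0.0382). Slc22a7, an organic anion transporter of the proximal tubule, was 14863, 21838, 16294 and 20659.8 and 1018, 81.6, 6319, 3769 and 32.4 (log2 change -4.96, SE 1.64, adjusted p = 0.0382). In both, replicates 3 and 4 had the highest treated values and replicates 2 and 5 the lowest. Both calls were lost without any 1 control (adjusted p = 0.06 to 0.0865) or GSK2830371 replicate 1 (adjusted p = 0.0691 and 0.0612), Ldc1 also without replicate 5 (adjusted p = 0.0737) and Slc22a7 without replicate 2 (adjusted p = 0.0795).

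A few further calls turned on the libraries or the test used. With only the treated libraries at 28 and 31 days Krt7, Slc5a1, Trpm7, Col4a3, Ifit2, Tgfb1 and Ppara did not pass (adjusted p = 0.0514 to 0.227), while Umod, Cd68, Ccl2, Ccl12, Irf1, Wnt4 and Hsph1 did (adjusted p = 0.00034 to 0.0441). With only those at 49 days Trpm7, Cd3e, Iglc2, Lpl, Akr1b7, Tgfb1, Ldc1 and Slc22a7 did not pass (adjusted p = 0.0502 to 0.151). With edgeR Lpl, Slc7a12, Ldc1 and Slc22a7 were not called (adjusted p = 0.0739 to 0.131) and Cd68 was (adjusted p = 0.0321). DESeq2 did not call Lpl (adjusted p = 0.0925) but called Umod, Cd68, Hbb-bt and Ccl2 as higher (adjusted p = 0.00311 to 0.0313). After GC correction Tgfb1 did not pass (adjusted p = 0.0781), whereas Col1a1 (1.77, adjusted p = 0.0388), Ccl12 and Ppm1d did (adjusted p = 0.0416 and 0.0385).

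The direction of change varied with base composition across genes. Of protein-coding genes in the lowest of 4 equal groups by GC content of the longest transcript, 41.0% were higher and 10.3% lower, and in the highest group 11.4% were higher and 43.6% lower. Across 14801 protein-coding genes, which are not independent replicates, the Spearman correlation of change with GC content was -0.328 and with transcript length 0.13. By gene class, 327 of 756 pseudogenes (43.3%) were higher and 99 lower, and 34 of 76 cytosolic ribosomal protein genes were higher and 10 lower. Reads of these can be shared among near-identical copies. Of 18 histone symbols, whose mRNAs mostly lack a poly(A) tail, 11 were lower and the other 7 did not pass (median -1.54). What gives this gradient was not tested. After GC correction, an alternative added after the data were seen, 4137 genes were higher and 4108 lower.

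**Figure D4:**
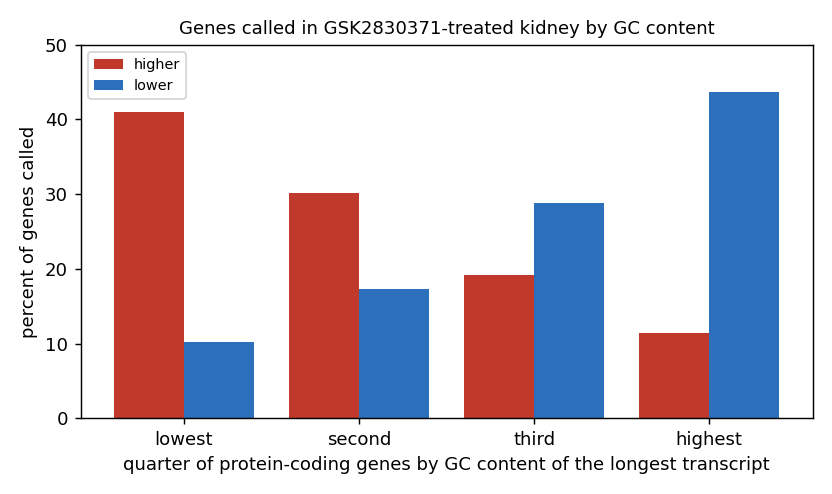
Percent of protein-coding genes called higher (red) or lower (blue) in GSK2830371-treated kidney, for 4 equal groups of genes ordered by the GC content of the longest transcript. The share higher falls from 41.0% to 11.4% and the share lower rises from 10.3% to 43.6%.

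The vehicle-treated i-TERTci kidneys (n = 5, at 29, 29, 29, 38 and 31 days) were compared with the same 4 controls in a table normalised on its own. Both comparisons share the controls, so their values are set side by side only, and the difference between the treatments was not tested. Tert changed by 3.25 with vehicle and 2.43 with GSK2830371, and Ppm1d by -0.71 (adjusted p = 0.00202) and -0.36 (adjusted p = 0.103). Tent5a changed by 5.85 and 6.12, Lcn2 by 6.52 and 6.77, Cdkn1a by 2.90 and 3.28, and C3 by 5.13 and 5.77. Cxcl1 changed by 7.23 with vehicle and 6.03 with GSK2830371, and S100a8 by 8.36 and 7.48. Among nephron genes Slc34a1 changed by -2.13 and -2.16, Rhbg by -3.62 and -2.53, Gata3 by -2.61 and -1.99, and Wnt9b by -3.53 and -2.33. Nphs1 changed by 0.44 (adjusted p = 0.278) and 0.11 (adjusted p = 0.832). Wnt4 changed by -1.37 (adjusted p = 0.00249) and -0.43 (adjusted p = 0.202), and Irf1 by 0.96 (adjusted p = 0.00166) and 0.45 (adjusted p = 0.079). Flt1 changed by 0.78 (adjusted p = 0.0833) and 1.21 (adjusted p = 0.000166), and Havcr1 by -2.75 and -2.40. Of these genes Ppm1d, Wnt4 and Irf1 passed with vehicle and not with GSK2830371, and Flt1 with GSK2830371 and not with vehicle, which does not show that the treatments differ.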

How the data were processed

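RNA was extracted from whole kidney with an RNeasy Micro kit and DNase, and mRNA libraries were sequenced, per the labels' protocols. The submitters' processing notes name the tools FastQC, Trimmomatic, STAR and DESeq2, with no version, and mm10 as the genome build. Which counter, strand setting and annotation were used is not given in the sources used here. All deposited signal values are whole reads divided by 1 size factor per library: 100% of values were whole multiples of the value of 1 read within a tolerance of 0.001. The recovered reads therefore give each library's depth.

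Genes with at least 10 normalised reads in at least 4 libraries were tested, 18067 of 24164. The main test was limma 3.58.1 (R 4.3.3) on log2(value + 1) with a variance trend and robust estimation in the 9 libraries, with Benjamini-Hochberg adjustment over all genes tested. A fold change on this scale understates the change of low genes. The test was also run on simulated data in which few genes changed and no trend with GC content was built in. It is therefore no check of calls in these data, where 50.3% of genes were called.

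Alternatives were pseudocount 5, no filter, TMM scaling, scaling to reads outside the mitochondrial genome, edgeR 4.0.16, DESeq2 1.42.0 and limma-voom on the recovered reads, a block for replicate number, groups of days, a 2-fold minimum and leaving out each library. A correction for GC content was added after the data were seen. edgeR's quasi-likelihood test on the recovered reads called 4801 genes higher and 4156 lower.

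The genes named were Tert and Ppm1d, the 10 largest rises and falls without overlap of libraries and with a group mean of at least 100, the first gene and the 1 or 2 members with the smallest p in each direction of each list, and the 6 changed genes with a treated mean of at least 100 that spread most among treated kidneys. Predicted genes, pseudogenes and genes at 0 throughout a group were left out of the ranking. A few genes that the rule names or the lists hold are not reported here by name. Other genes are marked in the text as chosen after their values were seen, or were named because a count, a defining marker or the sex of the libraries called for them. The groups, gene lists and rules were chosen with earlier results of these data known. The vehicle table was normalised separately and was not tested against this one. Promoter windows and gene positions come from the RefSeq and GENCODE M21 annotations of GRCm38, and 96.06% of genes matched by identifier. Whether the mice shared litters or days is not given in the labels.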

Additional observations from a re-analysis of the deposited data

Results flagged for a closer look

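Among 342 groups of 4 or 5 libraries checked for the genes named, 32 had a library far from the others of its group by Dixon's test, 10 in controls and 22 in GSK2830371-treated kidneys. Chance gives such a result in about 1 of 20 groups only for independent, normally distributed values. The counts tested were not on the log scale, the genes share the same libraries, and some were named for their wide spread. Where all other libraries of a group held no reads, any value passes the test. The 32 of 342 therefore cannot be set against that rate. Values are normalised read counts, and the reason for any of them was not tested.

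GSK2830371 replicate 4 stood apart most often, on the high side each time. It had 1300.2 for the adipocyte gene Adipoq, where the other treated kidneys had 0 to 28.2, 60.9 for Aplnr, 525 for Ccdc170, 13.7 for H1f3, 9436 for Hsph1 and 7662 for Prlr. It also had 33.4 for Slitrk6, 3840 for Syvn1, 127 for Upk2, 554 for Wnt4 and 124 for Zbp1. Several of these are genes that fell in the group, and there replicate 4 lay nearest to the controls.

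GSK2830371 replicate 3 was high for Akr1b7 (141), Lpl (89193), Mmp7 (1625) and Serpina6 (693), and low for the T cell gene Trac (15.7, the others 32.0 to 35.7). Replicate 1, a Y-positive library, was high for the androgen-dependent genes Cyp4a12a (3314) and Kap (463401) and for the fibrinogen chain genes Fga (126954) and Fgg (92712). Replicate 5, also Y-positive, had the lowest treated Cyp4a12a (556), and Kap in replicate 1 lay below every Xist-positive control (lowest 776724). Replicate 2 was high for Spp1 (1110687, the others 354662 to 497857) and Vgf (459).

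In the controls, replicate 3 had 184 for Mki67, where the others had 549.6 to 596, and was high for the neutrophil genes Camp (0.995), Ngp (7.96) and S100a8 (20.9). Control replicate 4 had 579 for Cdkn1a, where the others had 947 to 1002, and control replicate 1 had 75.6 for Cd3e and 1.08 for Elane. Control replicate 2 had 2.76 for Areg, 1.84 for Saa1 and 1.84 for Vgf, where the other controls had 0. These last 3 rest on 2 or 3 reads, and the control values of Camp and Elane on 1 read each.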

How the results depend on the processing

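Beside 4668 genes higher and 4426 lower, a 2-fold minimum left 2451 and 2612. Leaving out 1 library gave 3825 to 4714 higher and 3571 to 4551 lower. Pseudocount 5 gave 4690 and 4490, no filter 5470 and 5100, TMM 4849 and 4288, and scaling to reads outside the mitochondrial genome 5038 and 3661. Tests on the recovered reads gave 4801 and 4156 with edgeR, 4942 and 4487 with DESeq2, and 4693 and 4405 with limma-voom. The GC correction, chosen after seeing the data, gave 4137 and 4108. The median change of all genes was 0.0017 with the deposited factors, 0.02 with TMM and 0.09 with scaling outside the mitochondrial genome. Of 125 named genes called, 97 passed in the same direction in every alternative. The replicate block gave 4181 higher and 3998 lower, and 6 of the 125 lost their call. The same-numbered control and treated libraries correlated at 0.045, 0.073, 0.109 and 0.067 in their deviations from the group means. Each of these was the best match of its control, a hint from the data only. Since 3 of the 4 lay under 0.1, the numbers were not taken to pair the samples. Xist (-2.64, adjusted p = 0.412 over all 9 libraries) was reversed with only the treated libraries at 49 days (0.90, adjusted p = 0.00741).

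Limits: 27 genes of the lists were too low to be tested, and fitted changes of genes with 0 to 3 control reads depend on the pseudocount. Transgene, injection and days differ together between the groups. Sex differs within the treated group and, since all controls were Xist-positive, also between the groups. The mitochondrial share of reads differs between groups. Since the strand setting is not known, reads of overlapping genes cannot be told apart.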
